A study of Rattus norvegicus with 6 samples.

Results

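The let-7 family was followed in the left ventricle of diabetic and non-diabetic rats. Its members were the assays named let-7a, let-7b, let-7c, let-7d, let-7e, let-7f, let-7g, let-7i or miR-98 for the strand that carries the shared seed, 9 of the 584 miRNA assays on the arrays. The opposite strands, marked with a star, were kept apart. Each sample was 1 piece of left ventricular tissue, measured by RT-qPCR with U6 snRNA, a small nuclear RNA, as endogenous control. There were 3 OLETF samples, labelled as diabetic, and 3 LETO samples, labelled as healthy controls. OLETF (Otsuka Long-Evans Tokushima Fatty) is an inbred strain that lacks a functional cholecystokinin A receptor, overeats and develops obesity and type 2 diabetes, and LETO (Long-Evans Tokushima Otsuka) is the lean strain used as its control. Diabetes, obesity and strain therefore cannot be told apart, and the labels used here give no age, sex or treatment. In bulk tissue, fewer cells of a type and less RNA per cell cannot be told apart either.

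let-7 miRNAs are cut from hairpin precursors by Drosha and Dicer and guide Argonaute to mRNAs that pair with their seed. They accumulate as cells differentiate, while the RNA-binding protein LIN28 blocks their maturation in stem and embryonic cells. Known targets include RAS, HMGA and MYC transcripts, and in mice the LIN28 and let-7 pathway is known to act on insulin and IGF signalling and on glucose tolerance.

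The mature sequences are shown because the members differ at so few bases that an assay must tell near-identical RNAs apart. They are rat RefSeq sequences (GRCr8), 5′ to 3′, and the capitals mark the seed, bases 2 to 8. All 9 members matched an entry, and each is 22 bases long.
let-7a: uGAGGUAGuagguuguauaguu
let-7b: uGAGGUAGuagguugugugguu
let-7c: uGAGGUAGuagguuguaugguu
let-7d: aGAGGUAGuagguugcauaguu
let-7e: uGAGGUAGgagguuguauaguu
let-7f: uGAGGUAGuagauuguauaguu
let-7g: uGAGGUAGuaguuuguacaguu
let-7i: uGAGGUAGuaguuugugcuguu
miR-98: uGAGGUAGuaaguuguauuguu

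The seed GAGGUAG was the same in all 9 members, and among 693 mature rat names in the RefSeq table it was held by these 9 (1.30%) and by 0 others. Counted from 1 at the 5′ end and relative to let-7a, let-7c differs by A19G, let-7e by U9G and let-7f by G12A. let-7b carries A17G and A19G, let-7d carries U1A and U16C, and miR-98 carries G11A and A19U. let-7g carries G12U and U18C, and let-7i carries G12U, A17G, U18C and A19U. let-7i was thus the member farthest from let-7a, at 4 bases.

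The genes lie on 6 chromosomes, several of them in clusters (positions of the mature RNA, GRCr8). On the plus strand of chromosome 17, let-7a at chr17:16320145-16320166, let-7f at chr17:16320508-16320529 and let-7d at chr17:16322273-16322294 follow each other within the span of a long non-coding RNA gene. let-7c at chr7:118683636-118683657 neighbours let-7b at chr7:118684044-118684065. On the X chromosome, a further let-7f gene at chrX:24460052-24460073 lies beside miR-98 at chrX:24460663-24460684, both within the span of Huwe1, which encodes a ubiquitin ligase. let-7e at chr1:67350243-67350264 lies within 10 kb of miR-99b and miR-125a, a further let-7a gene at chr8:50805219-50805240 within 10 kb of miR-100, and a further let-7c gene at chr11:29688127-29688148 within 10 kb of miR-99a. let-7g at chr8:115701026-115701047 lies in the spans of Wdr82 and Rpl29, and let-7i lies on the minus strand at chr7:60527935-60527956. Whether these positions are exonic or intronic is not given in the gene table used. The assays read mature RNA, so the separate genes of let-7a, let-7c and let-7f were measured together.

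A threshold cycle (Ct) is the PCR cycle at which a well crosses the detection threshold, so a lower Ct means more RNA. Of the 54 Ct values of the members, which ran between 23.8 and 36.9, 52 lay below 35, the limit at or above which an assay was counted as not measured. Every member was 1 well per sample, on card A of the 2 cards. For scale, assays with a pair of wells on card B had an SD of 0.486 cycles per well below the limit (189 pairs) and 1.51 cycles where a well was at or above it (92 pairs). The number of miRNA assays below the limit was 197, 200 and 228 in OLETF replicates 1, 2 and 3, against 207, 202 and 292 in LETO. LETO replicate 3 stood apart in this way, and changes of the tested members relative to U6 are given with and without it. All 6 heart muscle marker assays, among them miR-133a, were measured in every sample, while liver miR-122 was measured in 0. Of the brain markers, miR-124 was measured in 0 samples and miR-9 in 6, and of the islet and epithelium markers, miR-375 in 0 and miR-200c in 6.

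The level of a member was the mean Ct of the 4 U6 wells of its card minus the member's own Ct, a log2 quantity. let-7g and let-7i were the most abundant members by this scale and miR-98 the least. let-7g had levels of -9.29, -9.54 and -7.60 in OLETF replicates 1, 2 and 3, against -8.48, -10.08 and -5.94 in LETO. let-7i had -9.72, -9.35 and -8.48 in OLETF, against -8.69, -10.16 and -6.08 in LETO. For both, LETO replicate 3 was the highest and LETO replicate 2 the lowest sample, so the LETO values enclosed the OLETF values.

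Mean levels over the 6 samples ranked, from the highest, in the order let-7g, let-7i, let-7e, let-7c, let-7d, let-7b, let-7a, let-7f and miR-98, and the group means of OLETF and of LETO held the same order. Differences between assays also hold differences in amplification efficiency, so the order is one of assay readings. From let-7g to let-7f the span was 5.26 log2 units, a 38.4-fold ratio if each cycle doubles the product, and from let-7g to miR-98 it was 8.13 log2 units. let-7g exceeded let-7i by 0.26 ± 0.36 (SD over 6 samples), let-7e exceeded let-7c by 0.63 ± 0.82, let-7c exceeded let-7d by 0.33 ± 0.45 and let-7b exceeded let-7a by 0.78 ± 0.83. These 4 neighbouring pairs did not differ beyond their spread, as each mean difference was smaller than its SD. The order held in 4 of 6 samples for let-7e over let-7c, and in 5 of 6 for each of the others.

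The other 4 steps in the order were larger than the spread and held in 6 of 6 samples. let-7i lay 1.04 ± 0.57 above let-7e, and let-7d lay 0.83 ± 0.57 above let-7b. let-7a lay 1.40 ± 0.78 above let-7f, from which it differs by G12A alone. let-7f lay 2.87 ± 1.60 above miR-98. The plot of levels by sample shows these steps.

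**Figure D1:**
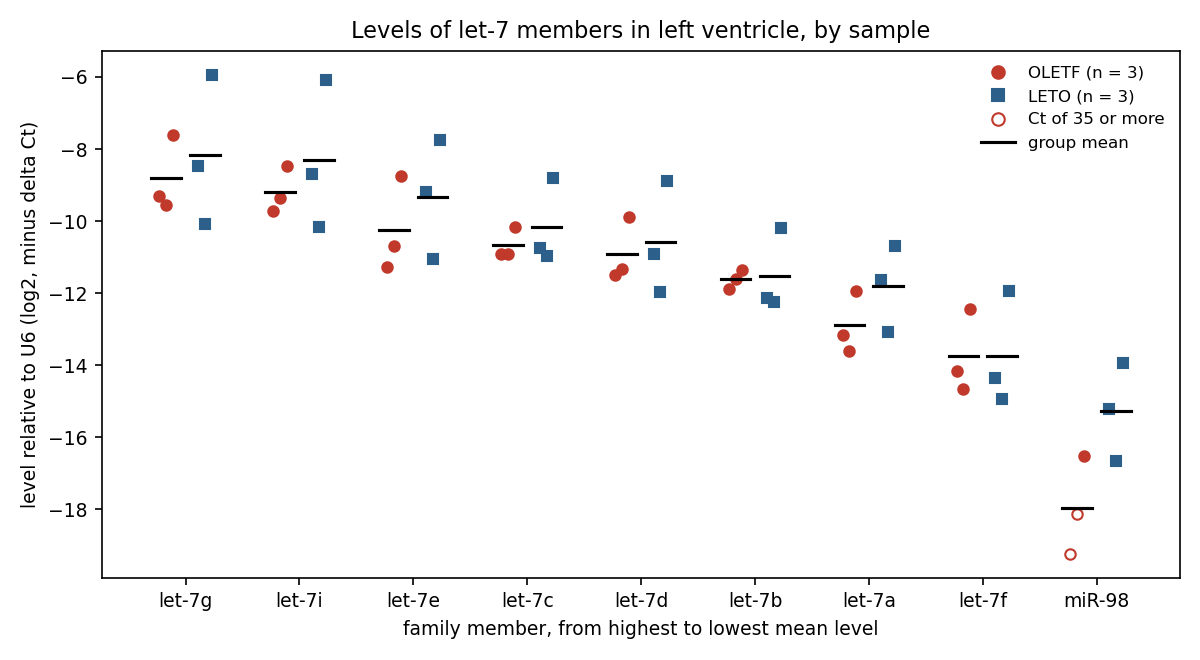
Level of each member relative to U6 (y axis, log2) in each sample, ordered from the highest to the lowest mean level on the x axis. Circles are the 3 OLETF samples, squares the 3 LETO samples, black lines the group means, and open symbols a Ct of 35 or more; let-7g and let-7i lie at the top and miR-98, with 2 open OLETF symbols, at the bottom.

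Relative to U6, no member passed the test between OLETF and LETO hearts. All 8 members that could be tested had a lower mean in OLETF, and 0 passed an adjusted p of 0.05 (limma, Benjamini-Hochberg over 193 assays; adjusted p = 0.997 for each). Across all 193 assays 0 passed too (0%), with 2 at an unadjusted p under 0.05 (1.04%) and 80.8% lower in OLETF, so a lower mean was the common direction. The members' median change was -0.56, beside -0.60 over all assays. For 0 of the 8 did the groups separate, as for 0% of the 162 assays measured in all samples.

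let-7a, which shares the chromosome 17 cluster with let-7f and let-7d, had the lowest change. Its levels were -13.15, -13.60 and -11.94 in OLETF, against -11.65, -13.07 and -10.70 in LETO. The difference was -1.09 (SE 1.38, 95% interval -3.80 to 1.61, limma adjusted p = 0.997; exact permutation p = 0.2). It was lower in 8 of 9 pairs of an OLETF and a LETO sample, the exception being OLETF replicate 3 against LETO replicate 2. Without LETO replicate 3 the difference of let-7a was -0.54, and without LETO replicate 2 it was -1.73. let-7f, its neighbour in the genome, had -14.17, -14.65 and -12.44 in OLETF, against -14.36, -14.94 and -11.95 in LETO. Its group means were alike, at -13.75 ± 1.16 in OLETF and -13.75 ± 1.59 in LETO (SD, n = 3 each), with an interval of the difference of -2.71 to 2.70 that spans several-fold changes in either direction.

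The other members lay between these 2. let-7e, of the cluster with miR-99b and miR-125a, had a mean of -10.24 ± 1.32 in OLETF, against -9.33 ± 1.65 in LETO, a difference of -0.90 that was -0.11 without LETO replicate 3 and -1.76 without LETO replicate 2. let-7i differed by -0.87, let-7g by -0.65, let-7c by -0.48, let-7d by -0.32 and let-7b by -0.09, all with the SE of 1.38. That SE was pooled by limma over assays and is not the spread of one miRNA: the SD of let-7b was 0.27 in OLETF and 1.15 in LETO.

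The direction of the family relative to U6 rested on LETO replicate 3. It had the highest level of 9 of 9 members, and without it 2 of 8 members were lower in OLETF and the median change turned to 0.36, beside 0.38 over all assays. The median level of the 8 members was -11.38, -11.12 and -10.02 in OLETF, against -10.83, -11.51 and -8.85 in LETO. The U6 Ct on card A was 17.6, 17.9 and 18.2 in OLETF, against 19.2, 17.5 and 17.9 in LETO, and its part in the result was not tested.

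With other references the members split. Relative to the median of the assays measured in all samples on the same card, 6 members were lower and 2 higher in OLETF (67.4% of assays lower), with a median of -0.36 beside -0.31 over all assays. Relative to the whole-array median 4 were lower and 4 higher (62.2% of assays lower), and relative to the small RNA controls snoRNA135 and U87 again 4 and 4 (41.5% lower). Under these 3 references 0 members and 0% of 193 assays passed the adjusted p in limma. let-7a, let-7e, let-7g and let-7i were lower under all 4 references, while let-7b and let-7f were higher under each except U6. All members are on card A, so another reference shifts the change of every member by the same amount. The 4 references therefore repeat the same order of the members and are not separate results.

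**Figure D2:**
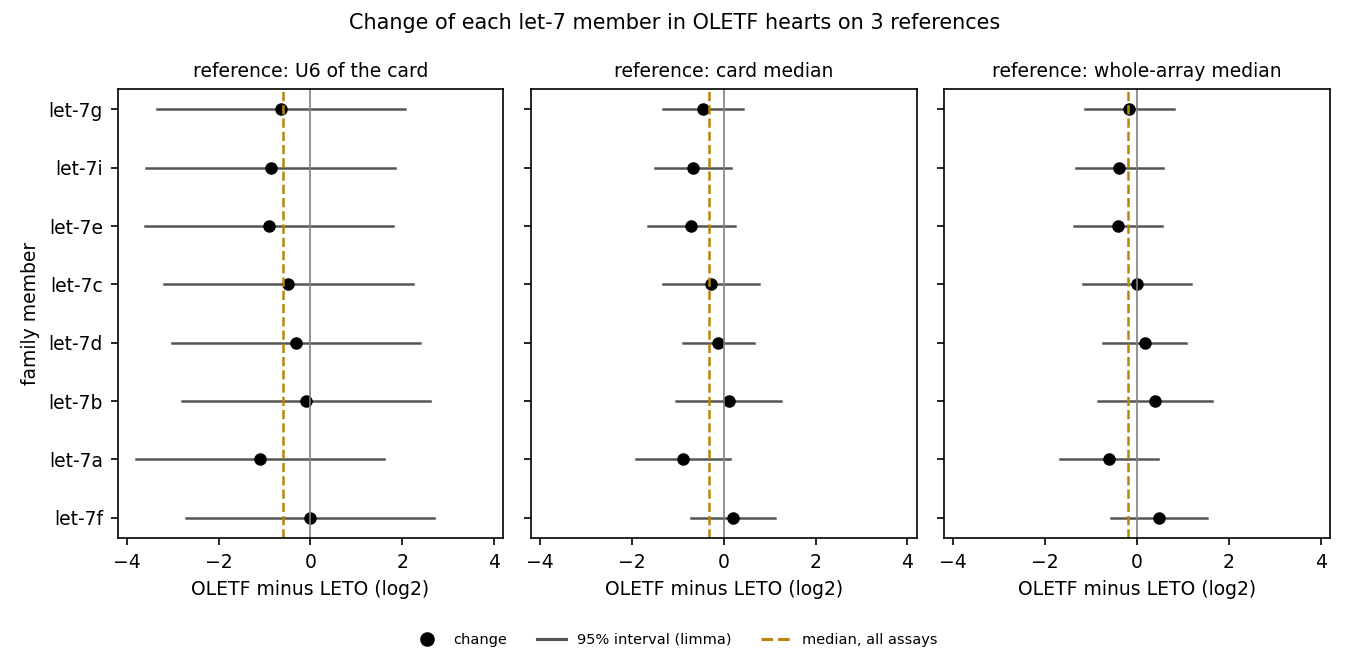
Change of each tested member, OLETF minus LETO (x axis, log2), relative to U6, to the card median and to the whole-array median, with 95% intervals from limma (n = 3 per group). The dashed line is the median of all 193 assays; every interval includes 0, and the points lie on both sides of the dashed line in each panel.

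Relative to the card median, the change of let-7i was the one that separated the groups. Its levels were 1.56, 1.72 and 1.26 in OLETF, against 2.13, 1.89 and 2.53 in LETO. Every OLETF sample lay below every LETO sample, a difference of -0.67 (SE 0.365, limma adjusted p = 0.632; exact permutation p = 0.1, the smallest that 3 against 3 samples allow). This was 1 of 8 members, beside 13.6% of the 162 assays measured in all samples, and relative to the whole-array median the groups overlapped (-0.38). let-7a differed by -0.89 (SE 0.447, limma adjusted p = 0.632) and let-7e by -0.70 (SE 0.416, limma adjusted p = 0.632), both lower in 8 of 9 pairs of samples. Of the heart muscle markers, the rat miR-1 assay (-0.54) and miR-499 (-0.90) were also lower in OLETF without overlap on this scale. The mouse miR-1 assay (-1.11), miR-133a (-0.22), miR-208 (-0.07) and miR-208b (-0.14) had lower means with overlap. The part of these markers in the result was not tested.

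Members were next compared with each other within a sample, which needs no reference because all are on card A. Each member's level minus the median of the 8 members of that sample kept the groups overlapping for 8 of 8 members. Against the same median, 8.64% of the 162 assays measured in all samples separated. Of these 162, 122 are on card A, and for the rest a difference between cards does not cancel. The 8 members also set the median they are measured from, which ties their offsets to each other. The share is therefore not a like comparison for them. let-7a lay at -2.06 ± 0.38 log2 units from the family median in OLETF, against -1.41 ± 0.53 in LETO (SD, n = 3 each; difference -0.65, exact permutation p = 0.2). let-7f lay at -2.91 ± 0.57 from it in OLETF, against -3.35 ± 0.23 in LETO (difference 0.44, exact permutation p = 0.4). The differences of the 8 members had sizes between 0.038 and 0.65.

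**Figure D3:**
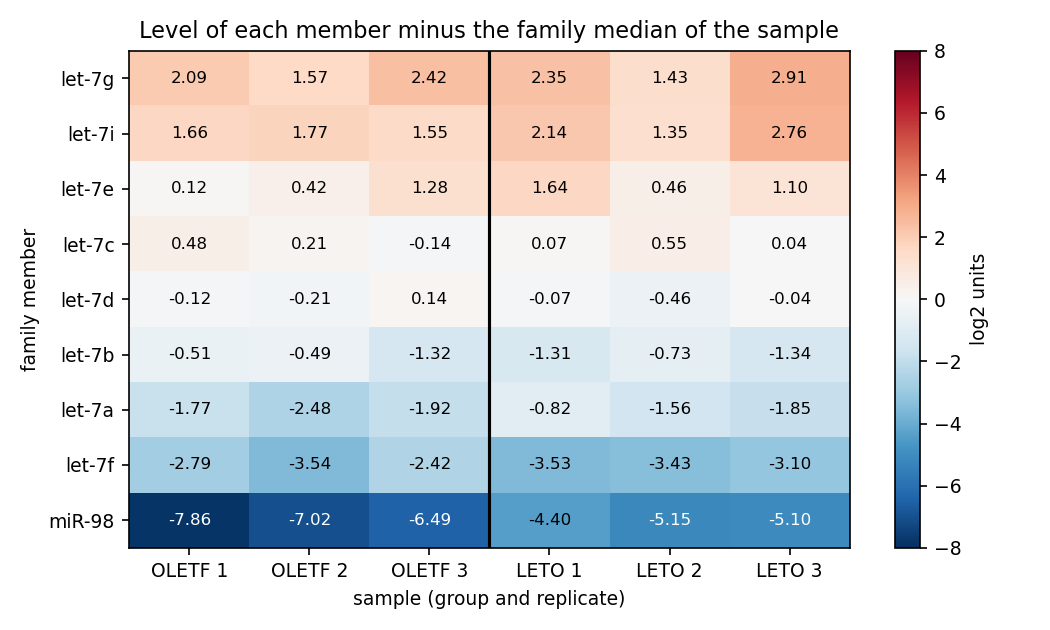
Level of each member (rows) minus the median of the 8 tested members in the same sample (columns; log2), with the 3 OLETF samples left of the black line and the 3 LETO samples right of it. Rows keep nearly the same colour across samples, except miR-98, which lies between -7.86 and -6.49 in OLETF and between -5.15 and -4.40 in LETO.

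Among the 28 pairs of tested members, the difference of levels separated the groups for 2, let-7a with let-7f and let-7b with let-7c, named after their values were seen. Among 7381 pairs of card A assays the share was 13.8%. let-7a exceeded let-7f by 1.02, 1.05 and 0.50 in OLETF, against 2.71, 1.87 and 1.25 in LETO. let-7b lay at -0.99, -0.71 and -1.18 relative to let-7c in OLETF, against -1.38, -1.28 and -1.39 in LETO. Both pairs differ at 1 base, and how well the assays tell such pairs apart was not tested. let-7b and let-7c also had the steadiest difference of all 28 pairs, with an SD of 0.264 over the 6 samples beside a median SD of 0.605.

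miR-98, the member encoded beside let-7f on the X chromosome, was the one that stood away from the rest. Its Ct was 36.9, 36.1 and 34.7 in OLETF, against 34.4, 34.1 and 31.8 in LETO. Every OLETF Ct lay above every LETO Ct (35.9 ± 1.08 against 33.5 ± 1.42, SD, n = 3 each; exact permutation p = 0.1, the smallest possible), as for 2.43% of 206 assays. It was below the limit of 35 in 1 OLETF and 3 LETO samples, so it was not tested under the Ct limit. Its 2 OLETF values above the limit lie where pairs of wells on card B had the SD of 1.51 cycles per well given above. Its other 4 values lie below the limit. Of these, OLETF replicate 3 (34.7) and LETO replicates 1 and 2 (34.4 and 34.1) lie close to it.

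Without the Ct limit, miR-98 relative to U6 was -19.24, -18.13 and -16.51 in OLETF, against -15.23, -16.66 and -13.95 in LETO. The groups overlapped by 1 pair of samples, OLETF replicate 3 and LETO replicate 2, and the difference was -2.68 (SE 1.46, limma adjusted p = 0.992; exact permutation p = 0.2). A change at or below this was seen in 4.71% of 255 assays.

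Relative to the card median, miR-98 was -7.95, -7.07 and -6.77 in OLETF, against -4.41, -4.60 and -5.34 in LETO. All OLETF samples lay below all LETO samples, as in 11.7% of 206 assays. The difference was -2.48 (SE 0.491, 95% interval -3.64 to -1.32) at an unadjusted limma p of 0.00152 and a limma adjusted p of 0.388, so it did not pass. A change at or below this was seen in 2.35% of 255 assays. Relative to the family median the difference was -2.24, again with no overlap, as for 3.88% of the 206 assays of both cards with OLETF below. The definition of the card median used first took all card A assays that gave a Ct in every sample. With it the difference was -2.35 (limma adjusted p = 0.352) and the groups did not overlap. The authors' deposited table gave a ratio of OLETF over LETO of 0.156 for miR-98, and ratios between 0.469 and 0.997 for the other 8 members. These ratios restate the changes relative to U6, the scale on which the groups of miR-98 overlapped, and are no separate evidence.

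The star strands come from the other arm of the same hairpins. Of 8 star assays, all on card B, 0 were measured in enough samples to be tested. let-7a* had a Ct of 35.8, 35.9 and 32.03 in OLETF, against 32.3, 33.3 and 29.1 in LETO, and was named after its values were seen. Its lowest OLETF Ct lay below the highest LETO Ct, so the groups overlapped. Without the Ct limit its level relative to the card median was -5.08, -5.87 and -3.43 in OLETF, against -3.16, -3.07 and -1.35 in LETO, and the groups did not overlap (-2.27, SE 0.789; limma adjusted p = 0.600), as in 11.7% of 206 assays lower in OLETF. Relative to the whole-array median the groups did not overlap either (-2.78). The separation was not seen under every reference: with the card median over all assays that gave a Ct in every sample, the definition used first, the difference was -1.62 (limma adjusted p = 0.619) and the groups overlapped, as they did relative to U6 (-3.03, limma adjusted p = 0.992).

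**Figure D4:**
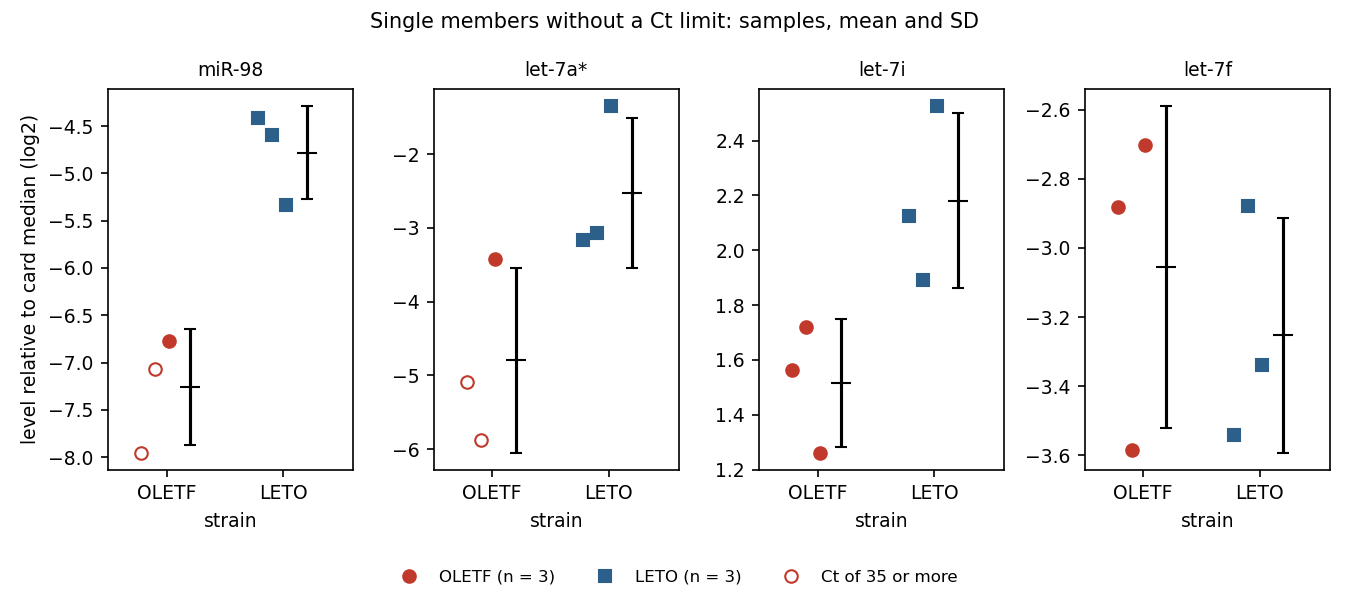
Level relative to the card median (y axes, log2, a scale of its own in each panel) of miR-98, let-7a*, let-7i and let-7f without a Ct limit, by strain. Symbols are samples (open, Ct of 35 or more), bars the mean and SD (n = 3 each); miR-98, let-7a* and let-7i do not overlap between OLETF and LETO on this reference, and let-7f does.

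A list of miR-100, miR-99a, miR-99b, miR-125a-5p and miR-125b-5p, known as partners of let-7 genes in genomic clusters, had 5 of 5 tested and 0 passed (limma). Genes of the first 4 lie within 10 kb of a let-7 gene, while no miR-125b gene does. Relative to U6, miR-100 differed by -0.99, miR-99a by -0.86, miR-99b by -0.55 and miR-125b-5p by -0.51, and miR-125a-5p by 0.62. Relative to the card median they kept these directions, at -0.78, -0.65, -0.35, -0.31 and 0.82. On that scale miR-125a-5p was 3.00, 3.00 and 2.78 in OLETF, against 2.44, 3.31 and 0.58 in LETO. Its groups overlapped, and LETO replicate 3 was far the lowest sample. The list's median was -0.55 relative to U6, beside -0.60 over all assays, and -0.35 relative to the card median, beside -0.31. let-7e (-0.90) and miR-125a-5p (0.62), which share a cluster, thus had opposite signs relative to U6, neither beyond its SE of 1.38.

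The assays closest to the family over the 6 samples were sought among 154 candidates. The measure was the root mean square difference from the family median, relative to the card median and centred. miR-720, a name now known to belong to a fragment of a transfer RNA, was closest at 0.0799 log2 units, followed by miR-30e* (0.183), miR-210 (0.206), the rat miR-1 assay (0.257) and miR-125b* (0.266). The median candidate lay at 0.586. The family median itself moved little on this scale, at -0.09, -0.05 and -0.28 in OLETF, against -0.01, 0.55 and -0.24 in LETO. A nearly flat assay therefore also scores as close, and closeness does not mean a shared pattern. Between the groups, miR-720 (-0.19), miR-30e* (-0.30) and the rat miR-1 assay (-0.54) were lower in OLETF. miR-210 (0.05) and miR-125b* (0.25) were higher, while the family median was lower (-0.24). The 8 members lay between 0.183 for let-7d and 0.538 for let-7e, but they set the family median themselves, so their closeness is partly built in.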

How the data were processed

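Per the labels' protocols, small RNA was turned into cDNA with stem-loop primers and measured on TaqMan rodent arrays. The deposited tables held the Ct of each of 768 wells per sample, a log2 quantity, per the file headers, that the authors normalized (Ct minus U6), and the authors' ratio (fold) of OLETF over LETO. Subtracting the average of each card's 4 U6 wells from each Ct, with undetermined wells at 40, matched the normalized table within 3.75e-06 over 3504 values. Baseline and threshold settings are not given in the sources used here.

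Repeat wells were averaged, and a Ct of 35 or more counted as not measured. Assays measured in at least 2 of 3 samples per group, 193 of 584, were compared with limma 3.58.1 in R 4.3.3 (two-sided, Benjamini-Hochberg, threshold 0.05; tested on simulated data) and single values with two-sided exact permutation tests. Median references used the assays with a Ct below 35 in all samples. For miR-98 and let-7a* without a Ct limit, the median of all assays that gave a Ct in every sample was used first, and it was replaced after its values were seen, so both are given.

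The labels do not say that rats came from separate litters or days, so p-values speak only for these samples. Those of limma rest on a spread pooled over assays, and not on that of the single miRNA alone. Members, lists and alternatives were chosen with earlier results of these data known. All 9 members are named, with the 5 assays closest to the family median, a list of cluster partners and let-7a*.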

Additional observations from a re-analysis of the deposited data

How the results depend on the processing

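Over 30 alternatives, 0 of the tested members passed an adjusted p of 0.05 in limma. The number of members lower in OLETF, 8 with U6, was 4 with the whole-array median, the other small RNA controls or quantile normalization, and 5 within replicates 1 and 2. It ran between 2 and 8 when 1 sample was left out with U6, and was 4 relative to the card median once LETO replicate 2 was left out. The members' median change was 0.037 with quantile normalization and ran between -1.31 and 0.36 when 1 sample was left out. Of all assays, 1 passed with the replicate number as a block, 1 with replicate 3 as a block and 32 with array weights, with 0 members among them. The replicate block changed no call of a member. Replicate numbers were not taken as pairs in the main test. Over assays measured in all samples, deviations from the group mean correlated between same-numbered samples at -0.088, 0.23 and 0.62 for replicates 1, 2 and 3. These values do not settle whether the numbers mark pairs.

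Single members changed sign, none of them past the threshold under any setting. With the whole-array median let-7b was 0.39, let-7c 0.0039, let-7d 0.17 and let-7f 0.48. With the other small RNA controls they were 0.46, 0.073, 0.24 and 0.55 in the same order, where the median of all assays was 0.13, and with quantile normalization 0.27, 0.15, 0.23 and 0.99. let-7b and let-7f were 0.11 and 0.20 with the per-card median (the same with either block), 0.021 and 0.11 with U6 pooled over both cards, and 0.44 and 0.24 within replicates 1 and 2, where let-7d was 0.020. let-7b was 0.30 with array weights and, relative to the card median and within replicates 1 and 2, 0.13. With the per-card median and 1 sample left out, let-7b was 0.035, 0.42, 0.012 and 0.65 without OLETF replicates 1 and 3 and LETO replicates 1 and 2. On that scale let-7f was 0.19, 0.49, 0.10, 0.50 and 0.15 without OLETF replicates 1 and 2 and LETO replicates 1, 2 and 3, and without LETO replicate 2 let-7c was 0.22 and let-7d 0.090. With U6 and 1 sample left out, let-7a ran between -1.73 and -0.54, let-7e between -1.76 and -0.11, let-7b between -0.45 and 0.57, let-7c between -0.87 and 0.20, let-7d between -1.01 and 0.53, let-7f between -0.66 and 0.90, let-7g between -1.60 and 0.47, let-7i between -1.79 and 0.25 and the median of all assays between -1.57 and 0.38. The highest value of each was that without LETO replicate 3. The cause was not tested.

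Without a Ct limit, miR-98 ran between -3.41 and -1.57 and let-7a* between -4.62 and -1.44 over 29 alternatives each, always lower in OLETF. Of these, array weights alone passed (limma adjusted p = 0.00955 for miR-98 and 0.00281 for let-7a*). In the fit with the Ct limit those weights ran between 0.238 and 3.67 and set LETO mostly on replicate 1. OLETF replicates 1 and 2 weighed 3.21 and 3.67 there, against 0.357 for replicate 3. In OLETF replicates 1 and 2 both miR-98 and let-7a* had a Ct above 35. A Ct near 35 and 3 samples per group limit what can be said of both, and miR-98 was a single well per sample.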
